A study of Mus musculus with 65 samples.

Results

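The genes described here are 35 genes of the cell cycle and DNA replication, followed through every treatment of a nascent transcription study in mouse erythroleukaemia cells. They were taken by name from the 15020 gene symbols of the deposited gene tables, and where a symbol had several transcripts the one with the highest mean was used. All 35 were present in each of the 4 gene tables, and all passed the filter on low values (a mean of at least 10 normalised reads). They fall into 11 genes of G1 and the entry into S phase, 12 genes of S phase, and 12 genes of G2 and mitosis. Cyclins of the D and E types, with the kinases Cdk4, Cdk6 and Cdk2, drive cells out of G1 and release the E2F factors from the retinoblastoma proteins. E2F factors then activate the genes for origin licensing, the replicative Mcm helicase and nucleotide supply. The mitotic genes, which encode the A and B cyclins, Cdk1 and the mitotic kinases, come on later and are commonly driven through the CCAAT box and the cell cycle homology region (CHR) of their promoters.

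The cells were the MEL line Mtg16-FKBP-2XHA, a murine erythroleukaemia line in which the corepressor Mtg16 (encoded by Cbfa2t3) carries an FKBP tag, so that every group, controls included, carries the tag. The agents were dTAGV1 at 250 nM, which degrades the tagged protein, A485 at 10 µM, which inhibits the acetyltransferases p300 and CBP, and LBH589 at 5 nM, which inhibits histone deacetylases. A time course held DMSO, degrader for 15 min, 30 min, 1 h or 2 h, and washouts of 30 min, 1 h or 2 h after 2 h of degrader. An A485 series held DMSO and degrader alone, A485 alone or both for 15 min, 30 min or 1 h. An LBH589 series held DMSO and LBH589 for 30 min or 1 h, and a separate series held washouts of 30 min or 1 h after 2 h of degrader in the presence of LBH589, with no control group in its table. How long LBH589 was present in that separate series is not in the labels. No group was washed without degrader, and neither cell cycle phase nor protein was part of the tables analysed. Nascent transcripts were measured by PRO-seq, in which engaged polymerases add a biotin-labelled nucleotide to nuclear RNA. Values are normalised reads per gene. The 4 tables were normalised separately, so that tests were run within a table and levels are not set across them. The labels do not say that libraries of a group came from separate cultures, so p-values measure the spread between these libraries, which may be technical.

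The libraries of the time course did not all match their groups. Over the most variable genes, replicate 2 of degrader 15 min correlated at r = -0.59 and -0.51 with the other two libraries of its group. Replicate 3 of degrader 30 min correlated at -0.39 and -0.34 with its own group and at 0.95 with both 30 min washout libraries. These 2 doubted libraries were kept in the main fit. The counts of called members in the time course, and some changes of single genes, are also given without them. Other time-course values are from the main fit. The 5 libraries of degrader 1 h and 2 h carry degrader library names but A485 in their titles and treatment labels, and were grouped by library name. In them Cbfa2t3 lay above DMSO (2.74 at 1 h and 2.85 at 2 h, log2) and all 9 tested erythroid marker genes rose, whereas with 1 h of A485 in the A485 series Cbfa2t3 lay below DMSO (-4.13) and all 9 fell. In the LBH589 washout series, replicates of a group correlated at 0.28 to 0.88. Depth, summed over all transcripts, ran from 7.45 M to 62.4 M reads per library. Reads of a gene with several transcripts can count more than once in this sum. Nascent RNA of the tagged gene, Cbfa2t3, checks transcription and not the protein: in the A485 series its normalised reads were 11528, 10211 and 12072 in DMSO, 50809, 52719 and 49431 after 1 h of degrader and 899, 490.0 and 598 after 1 h of A485. Of 11 erythroid marker genes, 9 were in the tables and all 9 had a mean of at least 10 in each, and the listed T-cell marker Cd8a had a mean under 1 in each. Of the markers of other cell types, Adgre1, a macrophage marker, rose at 1 h of LBH589 (log2 change 0.73 ± 0.14 SE, adjusted p = 5.78e-05; 62.23 to 143.2 normalised reads over that series). The B-cell marker Cd79a fell at 1 h of A485 (log2 change -2.01 ± 0.49 SE, adjusted p = 0.000685) and between the LBH589 washouts (log2 change -1.43 ± 0.26 SE, adjusted p = 0.00626), and the B-cell markers summed to 0 to 23.62 reads in the A485 series and, across the washouts with LBH589, to 19.97 to 74.84. Their part in the members' changes was not tested.

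In untreated cells the members spanned a wide range of nascent transcription. Per kilobase of gene span in the DMSO libraries of the A485 series, Mki67, the proliferation antigen that coats mitotic chromosomes, stood highest at 419.6 normalised reads. It was followed by Cdk6 at 251.3, the D cyclin gene Ccnd2 at 217.2 and Cdk1, the main mitotic kinase, at 186.0 normalised reads per kilobase. The lowest densities were those of Ccnd3 at 18.17, Ccne2 at 22.2, the spindle checkpoint kinase gene Bub1 at 26.58 and E2f2 at 30.95 normalised reads per kilobase. Ccnd3 thus held far fewer reads per kilobase of its span than its relative Ccnd2. Its reads are those of 1 transcript, while 2 starts are listed for the gene. The span of 94.6 kilobases may therefore not match the region counted. Spans overlap for some pairs, among them Ccnd3 with Bysl, Cdk4 with Tspan31, Cdk2 with Pmel and Cdc20 with Elovl1. Whether reads were counted by strand is not given in the sources used here, so reads of such pairs may be shared.

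Degrader treatment was followed by higher nascent transcription of 3 members in particular: E2f2, an activating E2F factor, Cdc6, which loads the Mcm helicase onto replication origins, and Mki67. These were called in the same direction in both degrader experiments, which share no control libraries, at 15 min and 30 min. At 1 h the members called the same way in both were E2f2, Cdc6 and Ccnd3, a D cyclin. Erythroid marker genes rose with the degrader too, all 9 at each degrader time of the time course. In the A485 series 3 of the 9 were called higher at 15 min, 6 at 30 min and 8 at 1 h. The part of these markers in the members' changes was not tested. In these bulk libraries a change in the share of cells in a phase cannot be told apart from a change in transcription per cell. E2f2 had 2472, 2372 and 2044 normalised reads in the DMSO libraries of the time course and 4240.4, 4465 and 4679 after 1 h of degrader. In the A485 series it had 792, 706 and 710.1 in DMSO and 1969, 2147 and 2276 after 1 h of degrader. All degrader libraries at 1 h lay above all DMSO libraries in both experiments. All changes are log2 changes between group means. That of E2f2 in the time course was 0.54 ± 0.15 (SE) at 15 min, 0.96 at 30 min, 0.96 at 1 h and 1.02 ± 0.17 (SE) at 2 h. In the A485 series it was 0.64, 1.07 and 1.53 ± 0.07 (SE) at 15 min, 30 min and 1 h, the last with a limma adjusted p of 2.19e-18. At 15 min in the time course the adjusted p was 0.0429, and the call was lost without degrader replicate 2 or any 1 of the DMSO libraries, up to an adjusted p of 0.176. The doubted library was the highest of that group at 4665 normalised reads, against 2770.2 and 2829 in the others, and without both doubted libraries the change was 0.29 (log2, adjusted p = 0.00192).

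Cdc6 changed with less spread. In the A485 series it had 1386, 1398 and 1429 normalised reads in DMSO, 1896, 1837 and 1881 at 15 min and 2159.6, 2461 and 2470.5 at 1 h of degrader, with no overlap between DMSO and either group. Its log2 change was 0.59 ± 0.07 (SE, adjusted p = 1.78e-05) at 15 min and 0.91 ± 0.07 (SE, adjusted p = 8.66e-07) at 2 h in the time course. In the A485 series the change went from 0.41 at 15 min to 0.75 ± 0.06 (SE, adjusted p = 7.43e-12) at 1 h. Mki67 had 10712, 11431 and 11425 normalised reads in DMSO and 17137, 16294 and 17393 after 15 min of degrader. The highest of its changes was the earliest in the A485 series, a log2 change of 0.60 ± 0.04 (SE, adjusted p = 3.73e-13) at 15 min against 0.39 ± 0.04 (SE) at 1 h. Whether these 2 changes differ was not tested. In the time course its change was 0.42 at 15 min and 0.45 ± 0.09 (SE, adjusted p = 0.00467) at 2 h, where the call was lost without degrader replicate 2 (adjusted p = 0.0622). At 1 h in the time course Mki67 did not pass, at a log2 change of 0.27 ± 0.08 (SE) with an adjusted p of 0.0508. Ccnd3 rose at all 4 times of the time course, from 0.54 ± 0.08 (SE) at 15 min to 0.47 ± 0.09 (SE) at 2 h, and at 1 h in the A485 series (log2 change 0.37 ± 0.10 SE, adjusted p = 0.00351).

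In the time course 4 members rose at 15 min and 1, Rrm2, fell (log2 change -0.38 ± 0.11 SE), among 12720 genes tested (6.93% of all genes called, 5.89% higher and 1.04% lower). At 30 min 4 rose and none fell (13.9% of all genes called, 8.69% higher and 5.17% lower). At 1 h 4 rose and 1 fell (11.3% of all genes called, 8.13% higher and 3.13% lower), and at 2 h 6 rose and none fell (9.39% of all genes called, 6.77% higher and 2.63% lower). The median log2 change over the 35 members lay between -0.08 and 0.03 at the 4 times, near that of all genes. Without the 2 doubted libraries the counts were 5 higher and 12 lower at 15 min, 4 and 4 at 30 min, 6 and 10 at 1 h, and 12 and 0 at 2 h. The share of all genes called was not counted for that fit. Of the 12 lower at 15 min, 7 were S phase genes. Single libraries also moved these counts: 3 were called at 15 min without DMSO replicate 1 or 2, 8 at 30 min without degrader replicate 2, and 3 at 1 h without degrader replicate 1 or 2 or DMSO replicate 2 or 3. The E cyclin gene Ccne1 rose at 2 h, with 745, 706 and 740.4 normalised reads in DMSO and 994 and 1004 in the degrader libraries (log2 change 0.45 ± 0.08 SE, adjusted p = 0.000781). Cdc20, the activator of the anaphase-promoting complex, was the 1 mitotic member that fell in the time course, at 1 h, with 567, 586 and 599 reads in DMSO and 471, 458 and 476 in degrader (log2 change -0.32 ± 0.08 SE, adjusted p = 0.0169). That call was lost without degrader replicate 1 or 2 or DMSO replicate 2 or 3, up to an adjusted p of 0.0727. Without the doubted libraries 6 of 12 mitotic genes were lower at 1 h, Cdc20 and Plk1 among them, and 1 was higher.

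In the A485 series 5 members rose and 7 fell after 15 min of degrader, among 12597 genes tested (16.7% of all genes called, 10.9% higher and 5.8% lower). At 30 min 5 rose and 3 fell (20.6% of all genes called, 11.3% higher and 9.23% lower), and at 1 h 5 rose and 9 fell (25.6% of all genes called, 14.7% higher and 10.9% lower). Without degrader 15 min replicate 4 or DMSO replicate 4 the 15 min count was 7 called, 5 higher and 2 lower. Ccnd2 fell at each time, by 0.33 on the log2 scale at 15 min, 0.43 at 30 min and 0.19 at 1 h. Its libraries held 5908, 5638 and 6064 normalised reads in DMSO and 4446, 4172 and 4416 after 30 min of degrader. The D cyclin genes thus went different ways, Ccnd2 lower at each time in this experiment and Ccnd3 higher at 1 h. In the time course Ccnd2 did not pass at any time of degrader against DMSO. Without the doubted libraries it was called higher at 1 h and 2 h of degrader, at a log2 change of 0.09 and 0.13. Cdc25b, a phosphatase that activates Cdk1 at entry into mitosis, rose step by step, from 422, 458 and 444 normalised reads in DMSO to 544, 531 and 519 at 15 min and 619.6, 651 and 614 at 1 h. Its log2 change at 1 h was 0.51 ± 0.06 (SE, adjusted p = 2.07e-07). In the time course it did not pass (log2 change 0.43 ± 0.16 SE at 2 h, adjusted p = 0.124), and passed at 2 h without the doubted libraries. Aurka, a spindle pole kinase, rose at 15 min by 0.33 ± 0.06 (SE) and at 30 min by 0.22. The S phase genes that fell at 1 h were Rrm2 and Rrm1, the subunits of ribonucleotide reductase, and the helicase subunits Mcm4 and Mcm5, at -0.42, -0.18, -0.33 and -0.22. Rrm2 went from 352, 309 and 321 to 219, 273 and 243 normalised reads. Cdk1 fell by 0.17 on the log2 scale at 1 h. Over the 35 members the changes in the 2 experiments had the same sign for 28 at 15 min, 17 at 30 min and 27 at 1 h. These counts and the correlations that follow keep the doubted libraries. Pearson's r across genes, which are not independent replicates, was 0.68, 0.53 and 0.84, and Spearman's rho 0.54, 0.13 and 0.41.

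**Figure D1:**
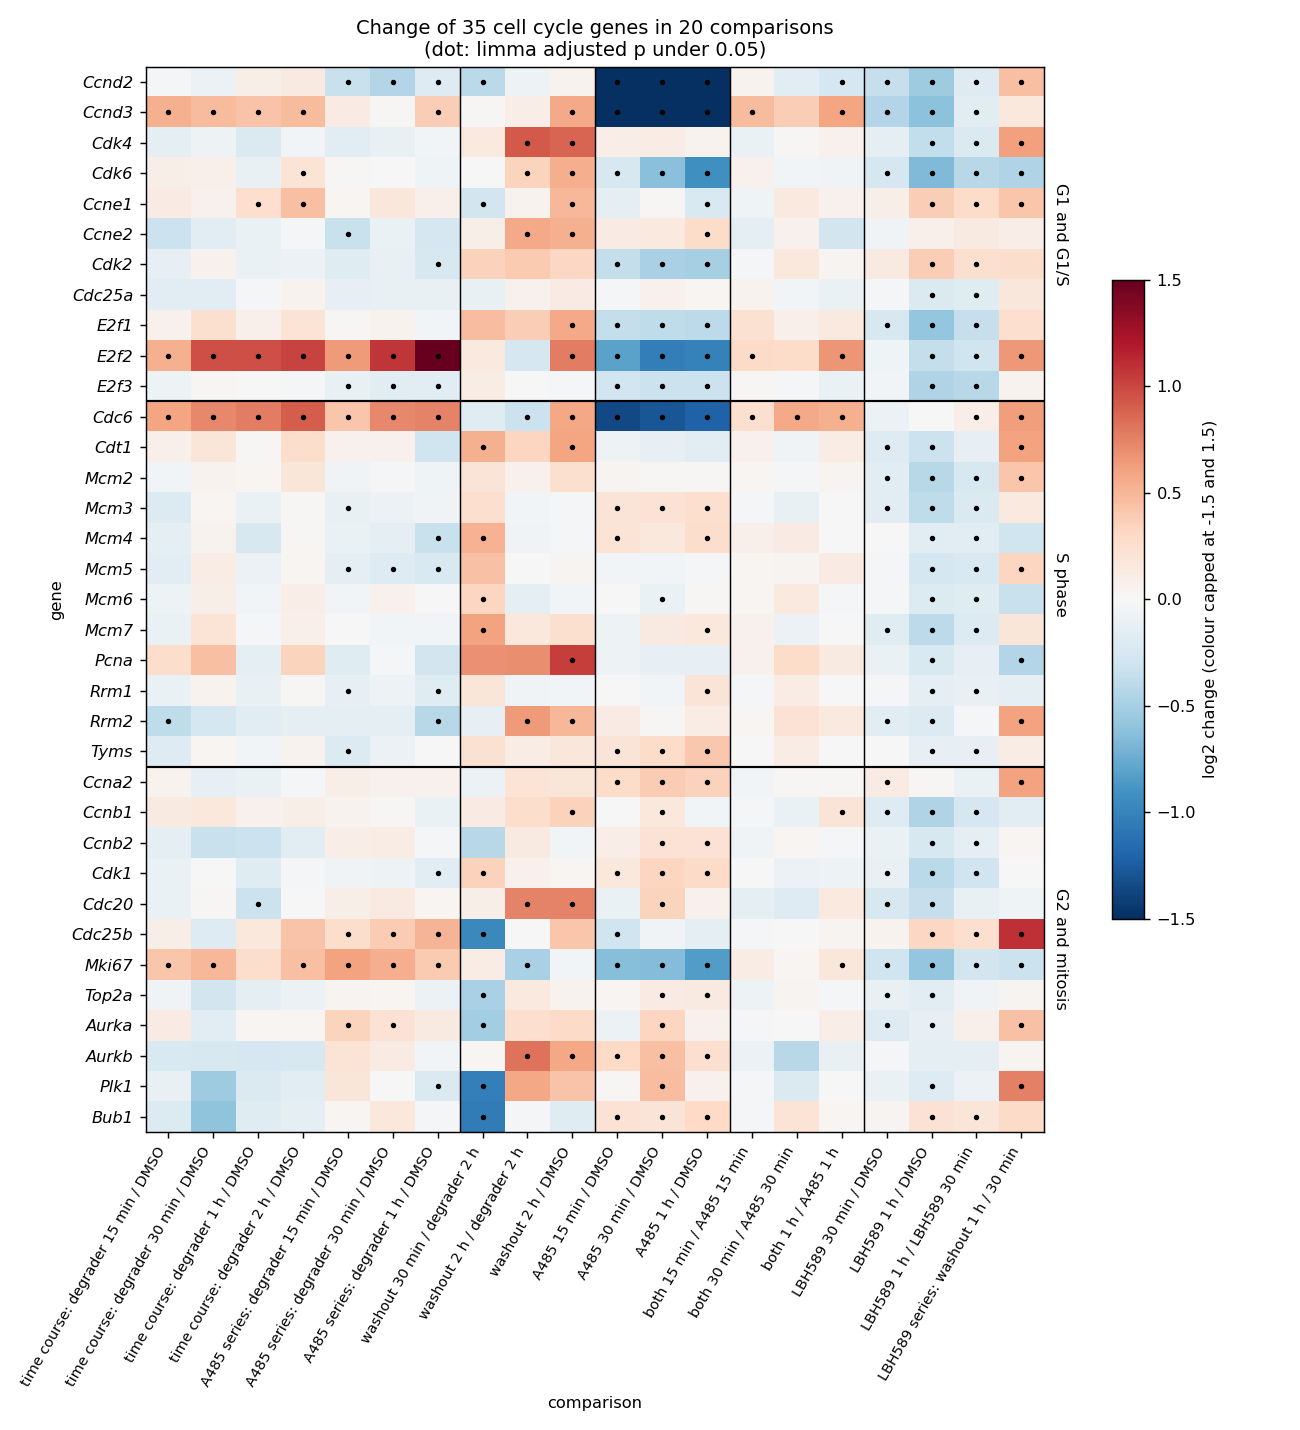
Log2 change of the 35 genes (rows, by phase) in each comparison (columns). Red is higher and blue lower in the first-named group, the colour is capped at 1.5 either way, and a dot marks a limma adjusted p under the threshold. E2f2 and Cdc6 are red in the degrader columns and blue in the A485 columns, where Ccnd3 and Ccnd2 lie past the cap.

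Promoters are shown for the members of each phase that were called in the most comparisons, which include 4 that rose with the degrader: E2f2 for G1, Cdc6 and Rrm2 for S phase, and Mki67 and Cdc25b for mitosis. Ccnd3, the next of G1, held no match to the motifs searched at the first of its 2 starts listed and is not printed. They come from RefSeq (GRCm38.p6), run from 250 bases before the start of transcription to 50 bases after it, and read 5′ to 3′ along the gene. Capitals mark matches to 3 motifs: CCAAT, the CHR (TTTGAA or TTCGAA), and an E2F-type site (TTTCCCGC, TTTGGCGC, TTTCGCGC, TTTGCCGC or TTTGGCGG), each searched on both strands. No matches overlapped in these 5 windows. The E2f2 window (chr4:136172024-136172323, plus strand) is the first of 2 starts listed for the gene. The others are those of Cdc6 (chr11:98907901-98908200, plus strand), Rrm2 (chr12:24708004-24708303, plus strand), Mki67 (chr7:135716330-135716629, minus strand) and Cdc25b (chr2:131186698-131186997, plus strand).
E2f2: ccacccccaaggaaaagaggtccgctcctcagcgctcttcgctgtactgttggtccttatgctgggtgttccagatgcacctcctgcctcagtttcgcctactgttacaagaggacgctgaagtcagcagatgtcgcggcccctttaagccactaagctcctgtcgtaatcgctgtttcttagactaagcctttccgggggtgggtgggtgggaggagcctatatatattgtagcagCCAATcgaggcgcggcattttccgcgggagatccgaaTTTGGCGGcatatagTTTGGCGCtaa
Cdc6: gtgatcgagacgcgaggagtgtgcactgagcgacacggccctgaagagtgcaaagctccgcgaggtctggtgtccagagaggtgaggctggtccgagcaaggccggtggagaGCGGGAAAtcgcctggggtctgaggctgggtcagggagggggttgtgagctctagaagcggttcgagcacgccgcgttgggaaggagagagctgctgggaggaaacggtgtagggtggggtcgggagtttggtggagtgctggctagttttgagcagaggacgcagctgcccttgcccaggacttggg
Rrm2: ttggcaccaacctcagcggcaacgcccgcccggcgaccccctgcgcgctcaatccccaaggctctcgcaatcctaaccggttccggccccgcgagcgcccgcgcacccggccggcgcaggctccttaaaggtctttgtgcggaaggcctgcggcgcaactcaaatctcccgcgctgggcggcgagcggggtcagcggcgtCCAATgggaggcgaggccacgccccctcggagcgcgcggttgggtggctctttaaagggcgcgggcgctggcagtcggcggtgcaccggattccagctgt
Mki67: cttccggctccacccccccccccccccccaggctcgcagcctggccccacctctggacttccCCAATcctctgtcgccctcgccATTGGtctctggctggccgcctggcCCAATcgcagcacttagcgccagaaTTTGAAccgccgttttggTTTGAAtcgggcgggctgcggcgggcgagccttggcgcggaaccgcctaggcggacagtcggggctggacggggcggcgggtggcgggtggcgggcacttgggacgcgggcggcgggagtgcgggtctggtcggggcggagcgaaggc
Cdc25b: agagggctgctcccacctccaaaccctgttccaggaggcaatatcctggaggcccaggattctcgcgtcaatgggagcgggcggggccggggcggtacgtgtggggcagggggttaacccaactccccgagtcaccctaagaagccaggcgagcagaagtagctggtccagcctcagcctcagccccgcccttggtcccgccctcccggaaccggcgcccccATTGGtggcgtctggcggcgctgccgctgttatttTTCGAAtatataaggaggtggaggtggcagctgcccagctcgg

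E2f2 held a CCAAT box 13 bases before the start and 2 E2F-type matches after it, first bases at 25 and 40. Cdc6 held 1 E2F-type match on the minus strand 138 bases before its start, and neither of the other motifs. Mki67 had 3 CCAAT boxes and 2 CHR matches between 188 and 98 bases before the start, Cdc25b 1 of each, and Rrm2 a single CCAAT box. Of the 35 members, 30 were in the promoter table of 27025 genes, and Ccnd2, Ccne2, Mcm4, Ccna2 and Aurkb are named only. A CCAAT box lay in 10 of 10 mitotic, 8 of 11 S phase and 4 of 9 G1 members, against 37.9% of all promoters of the same length. The CHR was found in 9 of 10 mitotic members, 2 of 11 S phase and 1 of 9 G1 members, against 19.4% of all promoters. E2F-type matches were in 6 of 11 S phase, 4 of 9 G1 and 1 of 10 mitotic members, against 2.8%. E2f2 and Cdc6, with E2F-type matches, and Mki67 and Cdc25b, without them, all rose with the degrader in the A485 series. They were shown for being called often, the degrader comparisons included. Mcm5, with 2 E2F-type matches, and Rrm2, without any, fell at 1 h of degrader in that series. A relation between motif and response was not tested.

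At 30 min of A485 7 of 11 G1 genes fell and none rose, while 10 of 12 mitotic genes rose and 1 fell. Of the 12 S phase genes 2 rose and 2 fell. At 15 min 7 of 11 G1 genes fell and none rose, and of the 12 mitotic genes 4 rose and 2 fell. In all, 7 rose and 10 fell at 15 min (55.1% of all genes called, 25.8% higher and 29.3% lower). At 30 min 12 rose and 10 fell (58.1% of all genes called, 27.1% higher and 31% lower), and at 1 h 12 rose and 10 fell (62.6% of all genes called, 29.4% higher and 33.2% lower), so that 48.6%, 62.9% and 62.9% of the members were called, shares near those of all genes. The degrader and A485 comparisons of this experiment share their DMSO libraries. The A485 libraries of 30 min and 1 h carry replicate numbers 1 to 3, and those of DMSO and A485 15 min carry 4 to 6. At 30 min and 1 h A485 depth was 7.45 M to 16.9 M reads summed over transcripts, against 21.4 M to 27.3 M in DMSO. At these times replicate set and depth cannot be told apart from A485. With every library scaled to the same total, the median of all genes moved up by 0.12 (log2) at 15 min, 0.19 at 30 min and 0.21 at 1 h. The splits were then 15 higher and 10 lower, 22 and 9, and 22 and 9. The shares of all genes called under this scaling were not counted. The G1 genes that fell kept their direction under both scalings, though Ccne1 at 1 h no longer passed (-0.02, adjusted p = 0.85). The 9 erythroid marker genes all fell at each time of A485, by log2 changes of -4.55 to -0.73 at 1 h, and their part in the members' changes was not tested.

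The D cyclins showed the largest falls of the members. Ccnd3 had 1752, 1665 and 1743 normalised reads in DMSO and 238, 238 and 215 after 15 min of A485, a log2 change of -2.90 ± 0.10 (SE, adjusted p = 5.28e-23). It stayed there, with 297 and 243 reads at 30 min and 241, 214 and 291 at 1 h. Ccnd2 went from 5908, 5638 and 6064 reads in DMSO to 1464, 1452 and 1410.0 at 15 min and 1341, 1384 and 1397 at 1 h. Its log2 change was -2.02, -2.33 and -2.09 ± 0.05 (SE) at 15 min, 30 min and 1 h (adjusted p = 5.65e-29 at 1 h). Both genes were thus near their lowest level within 15 min, with no overlap with DMSO. Cdk6, the kinase partner of the D cyclins, fell over a longer time. It had 47877, 47238 and 48124 normalised reads in DMSO, 39641, 39739 and 41422 at 15 min, 31061 and 30874 at 30 min and 24723, 24835 and 26388 at 1 h. Its log2 change was -0.25 ± 0.03 (SE), -0.62 ± 0.03 (SE) and -0.92 ± 0.03 (SE). Cdk6 is the longest member, with a span of 190.0 kilobases (GRCm38). The other D cyclin partner, Cdk4, did not pass at any time of A485.

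The 3 members that led the degrader response fell with A485. Cdc6 went from 1386, 1398 and 1429 normalised reads in DMSO to 569, 535 and 543 at 15 min and 623, 625 and 569 at 1 h (log2 change -1.21 ± 0.06 SE, adjusted p = 8.53e-19 at 1 h). E2f2 fell to 432, 429 and 402 reads at 15 min and 376, 368 and 349 at 1 h (log2 change -1.01 ± 0.07 SE, adjusted p = 2.95e-15). Mki67 fell to 7213, 7627 and 6730.0 reads at 15 min and 6336, 6267 and 6153 at 1 h (log2 change -0.84 ± 0.04 SE, adjusted p = 1.93e-19). Cdc6 was the 1 S phase gene, and Mki67 the 1 mitotic gene, lower at all 3 times. Among the other G1 members the E2F genes E2f1 and E2f3 fell at each time, at -0.39 and -0.32 at 1 h, and Cdk2, the partner of the E cyclins, fell to a change of -0.50 ± 0.09 (SE) at 1 h.

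The rises were smaller. At 30 min the mitotic kinase gene Plk1 had 1286 and 1339 normalised reads against 926, 963 and 973 in DMSO (log2 change 0.46 ± 0.08 SE, adjusted p = 2.25e-05). Aurkb, the kinase of the chromosomal passenger complex, had 292 and 373 reads against 259, 254 and 212 (log2 change 0.45 ± 0.12 SE, adjusted p = 0.0013), a call lost without A485 30 min replicate 2 (adjusted p = 0.106). Ccna2, cyclin A2, had 1335 and 1306 reads against 988, 1045 and 1019.9 (log2 change 0.38 ± 0.09 SE, adjusted p = 0.000688). In each of these the A485 libraries lay above all DMSO libraries. Cdk1 rose at all 3 times, by 0.16, 0.32 and 0.29 ± 0.03 (SE) on the log2 scale. Plk1 and Aurka passed at 30 min and not at 1 h, where their changes were 0.06 ± 0.08 (SE) and 0.06 ± 0.06 (SE). At 1 h 6 mitotic genes rose and 1 fell, and 5 S phase genes rose and 1 fell. Tyms, thymidylate synthase, led the S phase genes, with 2102, 2038 and 2008 normalised reads at 1 h against 1501, 1579 and 1549 in DMSO (log2 change 0.41 ± 0.05 SE, adjusted p = 2.21e-09). It was followed by the helicase subunit genes Mcm4 (log2 change 0.27 ± 0.07 SE) and Mcm3 (log2 change 0.26 ± 0.04 SE). Ccne2 was the 1 G1 gene called higher, at 1 h (log2 change 0.28 ± 0.11 SE), and the call was lost without A485 1 h replicate 1 or 2 or DMSO replicate 5 or 6, up to an adjusted p of 0.0932.

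**Figure D2:**
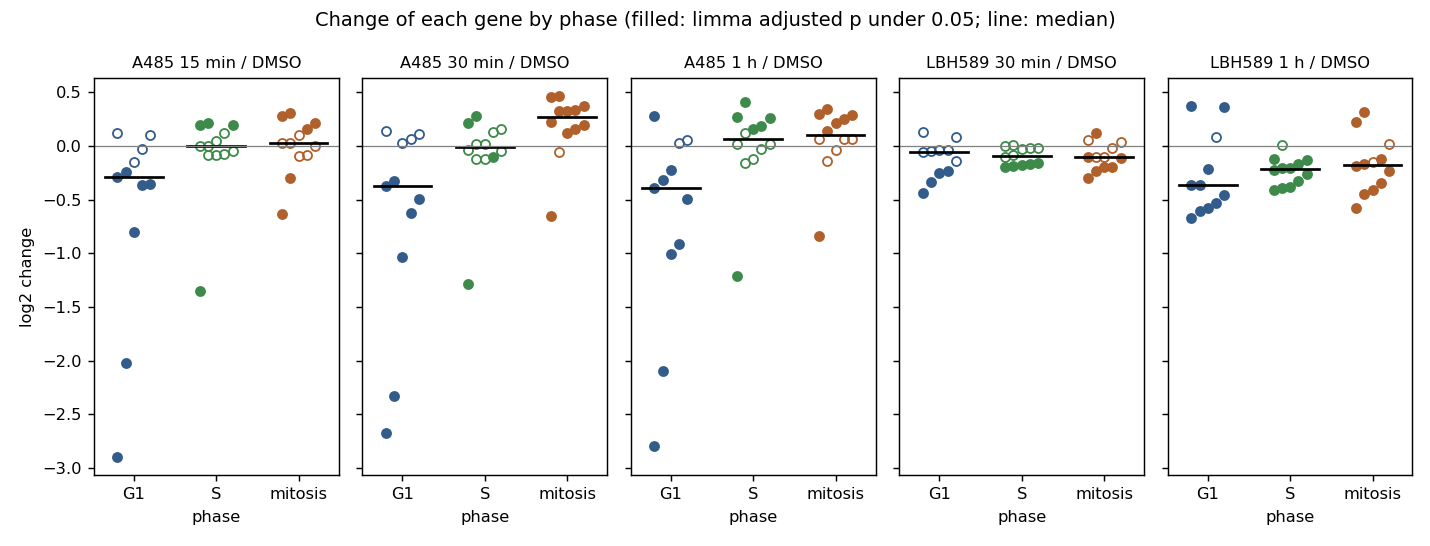
Log2 change against DMSO of each of the 35 genes, by phase, for A485 at 15 min, 30 min and 1 h and LBH589 at 30 min and 1 h. Each point is a gene, filled where it passed the limma threshold, and the line is the phase's median. Under A485 the G1 genes reach -2.90 while most mitotic genes lie above 0 at 30 min, and under LBH589 at 1 h all 3 medians lie below 0.

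With A485 present, the degrader still raised E2f2, Cdc6 and Ccnd3 at 1 h, by less for E2f2. At 15 min Mki67 did not pass on top of A485 (log2 change 0.12 ± 0.04 SE, limma adjusted p = 0.324). Against A485 alone, 3 members rose at 15 min (0.881% of all genes called, 0.857% higher and 0.0238% lower) and 1 at 30 min (1.81% of all genes called, 1.31% higher and 0.5% lower). At 1 h 5 rose and 1 fell (6.9% of all genes called, 4.56% higher and 2.34% lower). At 1 h E2f2 had 555, 613 and 565 normalised reads with both agents and 376, 368 and 349 with A485 alone (log2 change 0.66 ± 0.07 SE, adjusted p = 3.58e-09). Ccnd3 had 360.1, 414 and 345 reads with both and 241, 214 and 291 with A485 alone (log2 change 0.59 ± 0.10 SE, adjusted p = 5.91e-05). Cdc6 had 872, 926 and 841 reads with both and 623, 625 and 569 with A485 alone (log2 change 0.54 ± 0.06 SE, adjusted p = 3.55e-08). In these 3 genes the groups did not overlap at 1 h, yet every library with both agents lay below every DMSO library. Ccnd2 was the 1 member that fell further, from 1341, 1384 and 1397 reads to 1138, 1195 and 1119 (log2 change -0.26 ± 0.05 SE, adjusted p = 0.000186). The calls at 15 min, on Ccnd3, E2f2 and Cdc6, rested on single libraries. Without replicate 6 of both agents limma called none (lowest adjusted p 0.0691, with 6 members at an unadjusted p under 0.05), and it called 1 without replicate 4 of both agents or replicate 6 of A485. Cdc6 was the 1 call at 30 min (log2 change 0.57 ± 0.07 SE), with 2 called without A485 replicate 1 and 3 without replicate 1 of both agents.

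The degrader's effect at 1 h was compared with and without A485 through the interaction, the change with A485 present minus the change without it. It passed for 8 members, 5 higher and 3 lower, with 11.5% of all genes called, 4.99% higher and 6.54% lower. For E2f2 it was -0.87 ± 0.09 (SE, adjusted p = 9.04e-08): the degrader raised E2f2 by 1.53 (log2) alone and by 0.66 on top of A485. For Cdc25b it was -0.47 ± 0.09 (SE, adjusted p = 0.00067), from 0.51 alone to 0.04 on top of A485. For Mki67 it was -0.22 ± 0.06 (SE). Cdc6, whose change was 0.75 alone and 0.54 on top of A485, did not pass the interaction (log2 change -0.21 ± 0.08 SE, adjusted p = 0.102), and neither did Ccnd3 (log2 change 0.22 ± 0.14 SE, adjusted p = 0.331). Of the 5 members with a higher interaction 4 were S phase genes that fell with the degrader alone. Rrm2 went from a change of -0.42 alone to 0.14 with A485 present (log2 change 0.56 ± 0.12 SE, adjusted p = 0.00123), and Mcm5 from -0.22 to 0.13 (log2 change 0.35 ± 0.06 SE, adjusted p = 0.000186). The 1 h groups with A485 carry replicate numbers 1 to 3, and the groups without it 4 to 6. A degrader effect that differs between these sets cannot be told apart from an effect of A485.

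**Figure D3:**
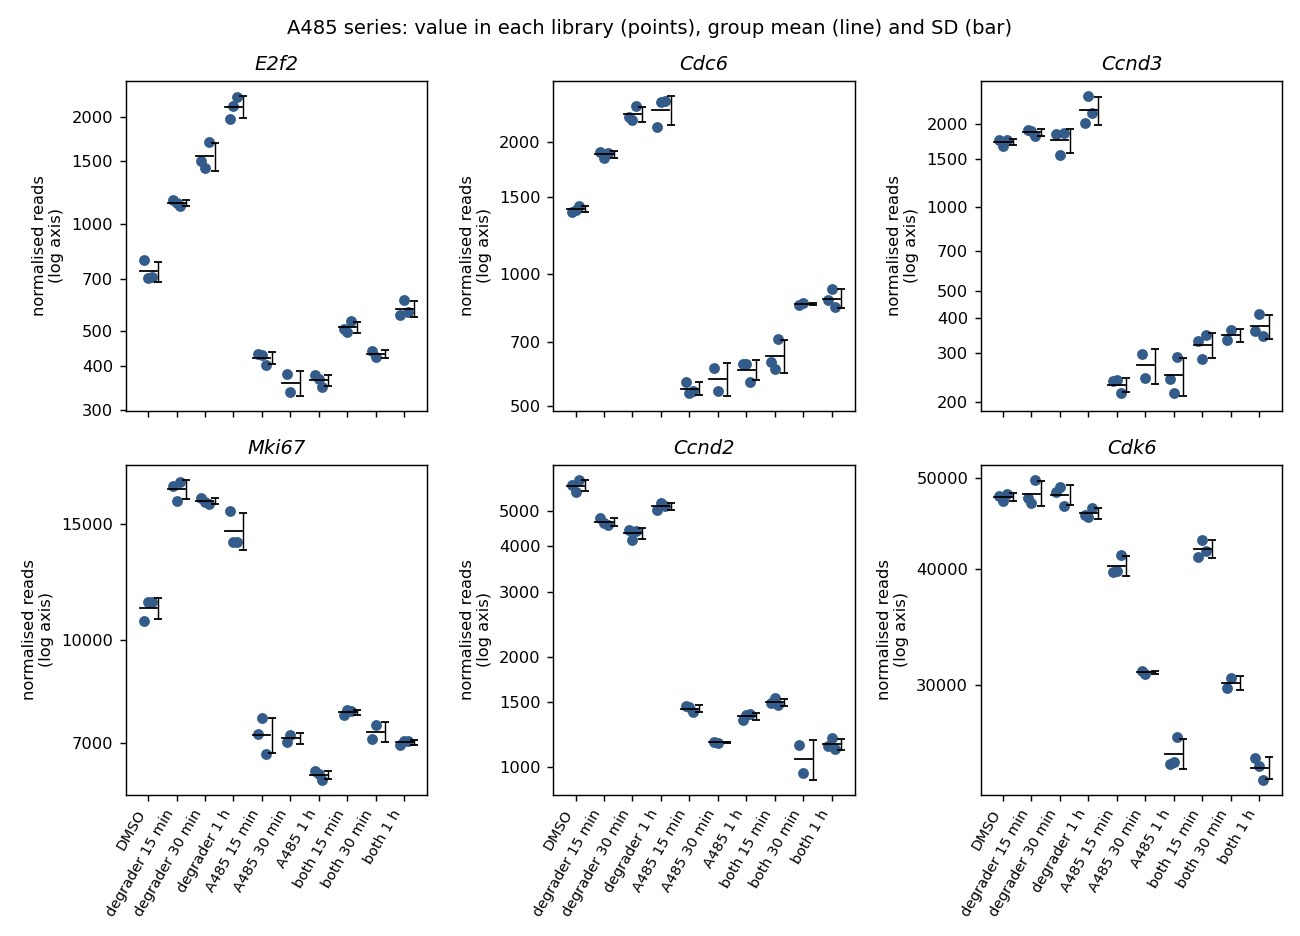
Normalised reads (log axis) of E2f2, Cdc6, Ccnd3, Mki67, Ccnd2 and Cdk6 in each library of the A485 series. Points are libraries, the line is the group mean and the bar its SD (n = 3, or 2 for A485 30 min and both 30 min). E2f2 and Cdc6 climb with the degrader alone, and with both agents they lie above A485 alone and below DMSO.

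LBH589 lowered most members within 1 h, across all 3 phases. At 30 min 1 member rose and 15 fell (39.7% of all genes called, 17.8% higher and 21.9% lower of 12553 tested), and at 1 h 4 rose and 27 fell (67% of all genes called, 32.4% higher and 34.6% lower). The median log2 change over the members at 1 h was -0.22, against -0.0032 over all genes. Of the 9 erythroid marker genes 7 fell at 1 h, and their part in the members' changes was not tested. By phase, 8 of 11 G1, 11 of 12 S phase and 8 of 12 mitotic genes fell at 1 h. With every library scaled to the same total the median of all genes moved by 0.12 (log2) at 1 h, and 7 members were higher and 18 lower. At 30 min that scaling gave 1 higher and 11 lower, and shares of all genes were not counted under it.

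Cdk6 showed the largest fall. It had 40862, 41741 and 43329 normalised reads in DMSO, 35655, 35563 and 34703 at 30 min and 26362, 27198 and 25726 at 1 h of LBH589 (log2 change -0.67 ± 0.03 SE, adjusted p = 8.48e-17). Ccnd3 went from 2992, 2840.5 and 2722 reads to 1806, 1902 and 1892 at 1 h (log2 change -0.61 ± 0.04 SE, adjusted p = 1.16e-13), most of it by 30 min (-0.44). E2f1 went from 1924, 2068 and 2015 reads to 1324, 1334 and 1352 (log2 change -0.58 ± 0.04 SE, adjusted p = 1.87e-13). The 3 DMSO libraries lay above the 3 LBH589 libraries of 1 h in each of these genes. Among the mitotic genes Mki67 fell from 9169, 8749.8 and 8562 to 5636, 6096 and 5995 reads (log2 change -0.58 ± 0.04 SE). Ccnb1, cyclin B1, fell from 1285, 1229 and 1165 to 853, 899 and 938 reads (log2 change -0.45 ± 0.05 SE), and Cdk1, its kinase, from 4432, 4294 and 4155 to 3224, 3336 and 3149 reads (log2 change -0.41 ± 0.04 SE). The helicase genes fell together: all 6 of Mcm2 to Mcm7 were called lower at 1 h. They ranged from -0.17 ± 0.05 (SE) for Mcm4, a call lost with same-total scaling (adjusted p = 0.346), to -0.41 ± 0.04 (SE) for Mcm2. Mcm2 had 2121, 2107 and 2047 reads in DMSO and 1563, 1658 and 1502 at 1 h. Mcm7 and Mcm3 changed by -0.39 ± 0.04 (SE) and -0.38 ± 0.04 (SE).

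A few members went the other way. Ccne1 had 674, 672 and 681 normalised reads at 1 h against 491, 552 and 532 in DMSO (log2 change 0.36 ± 0.06 SE, adjusted p = 9.05e-06), and its kinase gene Cdk2 589, 508 and 533 against 411, 463 and 384 (log2 change 0.37 ± 0.07 SE, adjusted p = 5.22e-05). Cdc25b had 703, 683 and 699.9 against 577, 579 and 524 (log2 change 0.31 ± 0.06 SE, adjusted p = 4.03e-05), and Bub1 rose by 0.22 ± 0.05 (SE). The 1 h libraries of Ccne1, Cdk2 and Cdc25b did not overlap with DMSO. Cdc6, which fell with A485, had 1908, 1872 and 1912 reads at 1 h of LBH589 and 1846, 1877 and 1926 in DMSO, a change of 0.01 ± 0.04 (SE) that did not pass (adjusted p = 0.809). E2f2 had 1806, 1867 and 1956 reads in DMSO, 1767, 1831 and 1798 at 30 min and 1495, 1492 and 1394 at 1 h (log2 change -0.36 ± 0.04 SE, adjusted p = 9.57e-09 at 1 h). Between 30 min and 1 h of LBH589 5 members rose and 20 fell (56.9% of all genes called, 27.3% higher and 29.6% lower). The falls over that interval were led by Cdk6 (log2 change -0.42 ± 0.03 SE) and E2f3, whose libraries went from 9139, 8993 and 9213 to 6676, 7256 and 6610.3 reads (log2 change -0.41 ± 0.03 SE). Same-total scaling gave 7 higher and 14 lower for this interval, again with no share of all genes counted.

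At 30 min of washout against 2 h of degrader 5 members rose and 7 fell (24.3% of all genes called, 10.5% higher and 13.8% lower). Of those that fell 5 were mitotic genes and 2 G1 genes, Ccnd2 and Ccne1 (log2 changes of -0.41 and -0.28). Of those that rose 4 were S phase genes. Plk1 had 1642 and 1641 normalised reads at 2 h of degrader and 865 and 751 after 30 min of washout (log2 change -1.03 ± 0.26 SE, adjusted p = 0.0175). Bub1 went from 1509 and 1738 to 743 and 821 reads (log2 change -1.05 ± 0.28 SE, adjusted p = 0.0195), and Cdc25b from 1212 and 1240.1 to 646 and 613 (log2 change -0.96 ± 0.18 SE, adjusted p = 0.0143). Of the 4 S phase genes that rose, Mcm7 went from 2328 and 2175 to 3473 and 3385 reads (log2 change 0.61 ± 0.19 SE, adjusted p = 0.0342) and Mcm4 from 1647 and 1785 to 2342 and 2595 (log2 change 0.52 ± 0.16 SE, adjusted p = 0.0275). The groups did not overlap in these 5 genes, nor in most members (29 of 35, with only 2 libraries a side), and this was not counted over all genes. Cdt1, the origin licensing factor, rose by 0.53 ± 0.18 (SE), and Mcm6 by 0.33 ± 0.10 (SE). Aurka and Top2a, topoisomerase II alpha, fell (-0.52 and -0.49), and Cdk1 was the 1 mitotic gene that rose (log2 change 0.35 ± 0.10 SE).

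These calls depended on which libraries were fitted. With only 2 libraries on each side, leaving out any 1 of the 4 (washout 30 min replicate 1 or 2, degrader 2 h replicate 1 or 2) left no member called by limma. The lowest adjusted p was then 0.0649 to 0.106, and 10 to 15 members had an unadjusted p under 0.05. The 2 doubted libraries enter the spread shared by the groups of that table. The library labelled degrader 30 min replicate 3 had 723 reads of Plk1, 648 of Bub1 and 3606 of Mcm7, each beyond the washout values and apart from its own group. Without the 2 doubted libraries 13 members rose and 9 fell, among them 10 of 12 S phase genes higher and 6 of 12 mitotic genes lower. The share of all genes called was not counted for that fit, so the added calls cannot be read as particular to the members. With 1 more of the 4 libraries then left out, 20 to 23 members were called, and the 12 members called with all libraries in the fit passed each time. As no group was washed without degrader, medium change and loss of degrader cannot be told apart.

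**Figure D4:**
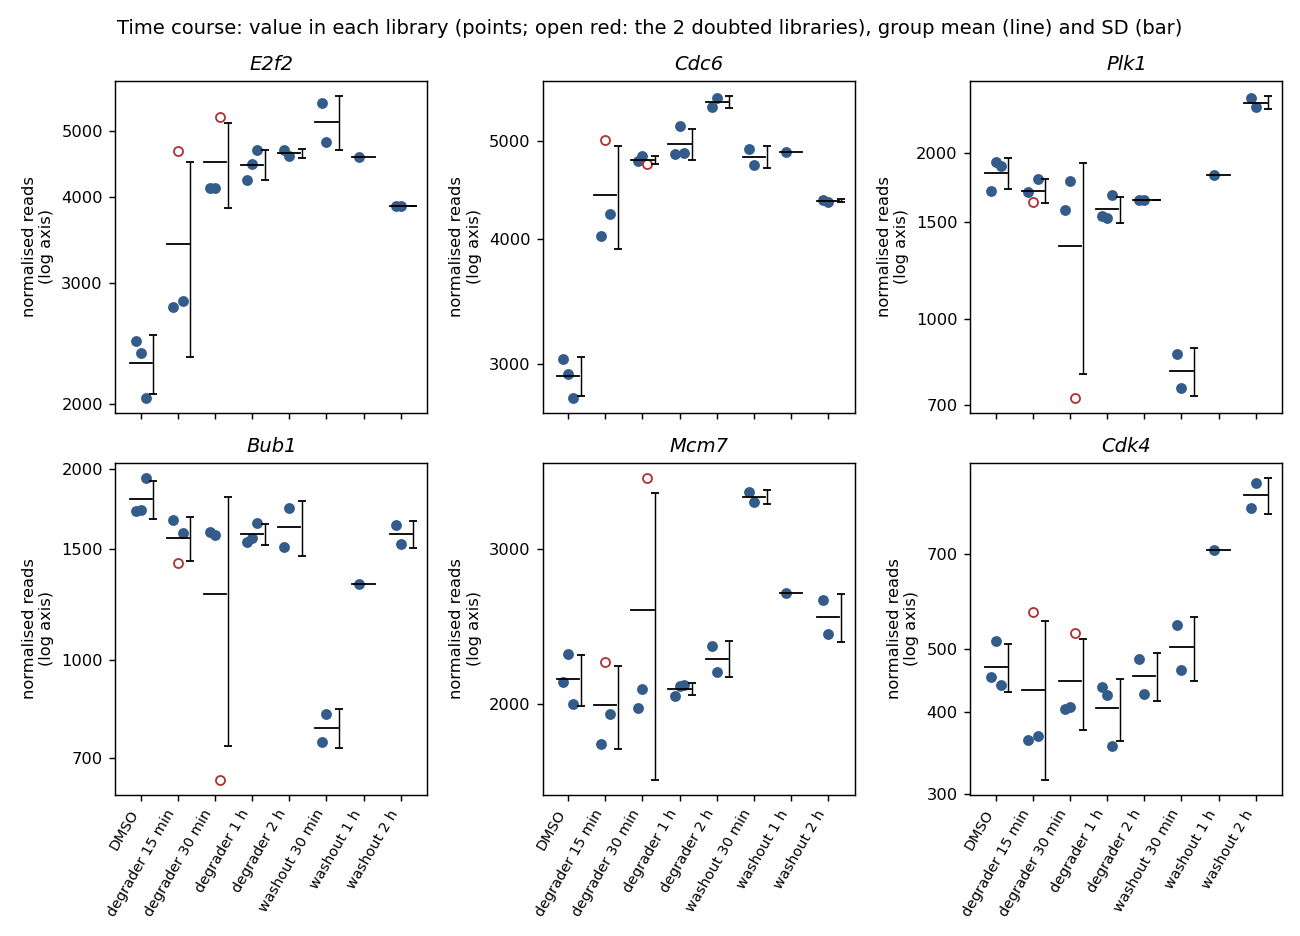
Normalised reads (log axis) of E2f2, Cdc6, Plk1, Bub1, Mcm7 and Cdk4 in each library of the time course, with group means (lines) and SD (bars). Open red points are the 2 doubted libraries. Plk1 and Bub1 are low and Mcm7 is high after 30 min of washout, as in the doubted library of degrader 30 min, and Cdk4 is highest after 2 h of washout.

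At 2 h of washout 2 mitotic genes lay above 2 h of degrader and 1 below it. Against 2 h of degrader 6 members rose and 2 fell (17.3% of all genes called, 8.98% higher and 8.3% lower), and 16 rose and 4 fell without the doubted libraries. The latter fit has no count over all genes beside it. Cdk4 led, with 482 and 427 normalised reads at 2 h of degrader and 822 and 898 after 2 h of washout (log2 change 0.92 ± 0.20 SE, adjusted p = 0.00547). Aurkb went from 376 and 343 to 632 and 634 reads (log2 change 0.82 ± 0.15 SE, adjusted p = 0.0019) and Cdc20 from 597 and 563 to 943 and 1007 (log2 change 0.75 ± 0.10 SE, adjusted p = 0.00026). Rrm2 went from 883 and 930.1 to 1447 and 1379.8 reads (log2 change 0.64 ± 0.13 SE). Ccne2 and Cdk6 rose by 0.56 and 0.34. The 2 that fell were genes that the degrader had raised: Mki67 went from 17962 and 18338 to 13404 and 12533 reads (log2 change -0.49 ± 0.10 SE, adjusted p = 0.00532) and Cdc6 from 5417 and 5526 to 4377 and 4354 (log2 change -0.33 ± 0.08 SE, adjusted p = 0.0131). Their rise against DMSO at 2 h and this fall rest on the same degrader 2 h libraries. E2f2 went from 4686 and 4588 to 3885 and 3887 reads, which did not pass (log2 change -0.25 ± 0.19 SE, adjusted p = 0.376) but did without the doubted libraries, at the same change. The count was 5 without degrader 2 h replicate 2 and 4 without the second 2 h washout library. Without either of these the Cdk4 call was lost, up to an adjusted p of 0.0622, and the Mki67 call was lost without the second washout library (adjusted p = 0.0648). The calls on Cdc6 and Ccne2 were each lost without any 1 of the 4 libraries, up to adjusted p of 0.0931 and 0.138.

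Against DMSO, 14 members were higher after 2 h of washout and none lower (38.5% of all genes called, 21% higher and 17.5% lower). They were 7 of 11 G1, 4 of 12 S phase and 3 of 12 mitotic genes. Pcna, the sliding clamp of the replication fork, changed most, from 485.1, 540.4 and 418 normalised reads in DMSO to 983 and 980.5 (log2 change 1.04 ± 0.27 SE, adjusted p = 0.00669). Cdk4 (log2 change 0.87 ± 0.18 SE), E2f2 (log2 change 0.76 ± 0.17 SE) and Cdc20 (log2 change 0.74 ± 0.09 SE) followed. Cdc6 stayed above DMSO by 0.58 ± 0.07 (SE), with its washout libraries between those of DMSO and those of 2 h of degrader. Mki67, with 13404 and 12533 reads after washout and 12616, 13201 and 14071 in DMSO, did not pass (log2 change -0.04 ± 0.09 SE, adjusted p = 0.79). Without the doubted libraries 23 members were higher and 1 lower, with no share of all genes counted for that fit. In the main fit all 9 erythroid marker genes were also above DMSO, by log2 changes of 0.54 to 1.8. Their part in the members' changes was not tested.

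In the LBH589 washout series the members moved from 30 min to 1 h mostly upward. As the labels do not say how long LBH589 was present, its exposure and the washout time cannot be told apart. Among 12342 genes tested 13 members rose and 3 fell (23.3% of all genes called, 13.2% higher and 10.1% lower). Of the 9 erythroid marker genes 5 rose and none fell, and their part in the members' changes was not tested. Cdc25b went from 246, 168 and 231 normalised reads at 30 min to 424, 344 and 647 at 1 h (log2 change 1.10 ± 0.23 SE, adjusted p = 0.00898), with replicate 3 of 1 h well above the other two. Plk1 went from 344, 306 and 318 to 496, 471 and 686 reads (log2 change 0.75 ± 0.15 SE, adjusted p = 0.00766), again highest in replicate 3. E2f2 rose from 1300.3, 1098 and 1163 to 1786, 1813 and 1991 reads (log2 change 0.65 ± 0.09 SE, adjusted p = 0.00213). Cdc6 rose from 920.5, 779 and 866 to 1376, 1269 and 1303 reads (log2 change 0.62 ± 0.09 SE, adjusted p = 0.00271). Cdk4 rose by 0.61 ± 0.16 (SE) and Ccna2 by 0.61 ± 0.12 (SE). The 3 that fell were Cdk6, from 14753, 15863 and 16034 to 11234, 12393 and 10453 reads (log2 change -0.46 ± 0.08 SE, adjusted p = 0.00461), Pcna (log2 change -0.43 ± 0.11 SE) and Mki67 (log2 change -0.32 ± 0.10 SE). The groups did not overlap in these genes, as in 22 of the 35 members, and this was not counted over all genes. The count fell to 9 without 30 min replicate 1, and to 7 without replicate 2 or 3. The calls on Cdc25b and Ccna2 were lost without 30 min replicate 2 (adjusted p = 0.0537 and 0.0534), and those on Cdk4, Pcna and Mki67 without any 1 of the 30 min libraries, the last also without 1 h replicate 1.

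Other cell cycle genes, a list of 93 of which 92 were tested, were counted beside the members. With A485 at 1 h 44 of the 92 rose and 16 fell (65.2% called, against 62.6% of all genes), and with LBH589 at 1 h 24 rose and 37 fell (66.3% against 67%). At 1 h of degrader in the A485 series 8 rose and 11 fell (20.7% against 25.6%). Of 10 brakes of G1, 6 fell at 1 h of A485 (33.2% of all genes lower): 5 CDK inhibitor genes and the pocket protein gene Rb1. The other pocket protein genes, Rbl1 (log2 change 0.14 ± 0.05 SE) and Rbl2 (log2 change 0.34 ± 0.06 SE), rose. Cdkn2d, a CDK4 and CDK6 inhibitor, had 249.4, 243 and 215 normalised reads in DMSO and 57.4, 28.7 and 30.9 after 1 h of A485 (log2 change -2.63 ± 0.23 SE, adjusted p = 4e-12). Cdkn1a, which encodes p21, went from 723, 678 and 629.5 to 155, 194 and 173 reads (log2 change -1.96 ± 0.09 SE, adjusted p = 5.38e-19). Of 38 other replication genes 23 rose and 3 fell at 1 h of A485 (60.5% higher, against 29.4% of all genes). Of 34 other mitotic genes 14 rose (41.2%) and 5 fell (14.7%) at 1 h, and 16 rose and 6 fell at 30 min, where Kif20a, a kinesin of cytokinesis, led (log2 change 0.66 ± 0.07 SE). With LBH589 at 1 h the replicative polymerase gene Pold1 fell most (log2 change -0.73 ± 0.06 SE), followed by Ube2c, a ubiquitin enzyme of mitotic exit (log2 change -0.65 ± 0.10 SE). Tfdp2, an E2F partner (log2 change 0.68 ± 0.04 SE), and the inhibitor gene Cdkn2c (log2 change 0.54 ± 0.13 SE) rose. At 30 min of washout 10 of 34 other mitotic genes fell (29.4%, against 13.8% of all genes) and 2 rose, among them the checkpoint kinase gene Ttk (log2 change -1.03 ± 0.26 SE, adjusted p = 0.0166) and the kinesin gene Kif2c (log2 change -0.89 ± 0.27 SE, adjusted p = 0.028), both lower.

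Across the 21 comparisons E2f2 and Cdc6 were each called in 17, Mki67 in 16, Ccnd3 in 14 and Ccnd2 in 12. Cdc25a, a phosphatase that activates Cdk2, was called in 2 and Pcna in 3. The genes called most often spanned the range of density in DMSO, from Ccnd3 and E2f2 among the lowest per kilobase of gene span to Mki67, the highest. The span of Ccnd3 may not match the region counted.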

How the data were processed

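Nascent transcripts of MEL Mtg16-FKBP-2XHA cells were measured by PRO-seq. The deposited gene tables hold a signal per transcript, read counts normalised by the authors with DESeq2, per the labels. Per the submitters' processing notes the tools were DESeq2 1.46.0, featureCounts 2.0.1, HOMER, bedtools, SAMtools 1.16.1 and Bowtie2 2.2.2, and the builds mm39 and dm3, with no role given for either. The values were whole multiples of 1 read's worth in each library, so that depth could be recovered. Of the time course's columns 3 were not used, 2 with values that the labels do not settle and 1 empty.

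The transcript with the highest mean was kept for each of 15020 symbols, and 62 libraries were used. On log2(value + 1), genes with a mean of at least 10 were fitted per table with limma 3.58.1 (R 4.3.3), all groups sharing the spread, with Benjamini-Hochberg adjustment over all genes and a threshold of 0.05. Fold changes on this scale understate those of low genes. The scripts were tested on simulated data. Alternatives were edgeR 4.0.16 on the recovered read counts (quasi-likelihood, TMM), a pseudocount of 10, no filter, rescaling to the same total, the compared groups only, the second transcript, the replicate block, each library left out, and without doubted or conflictingly labelled libraries.

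Values per library are given for called members with the largest change, up to 3 per phase and direction, and of other cell cycle genes up to 3 called per direction and comparison are named. The members, lists and doubted libraries were chosen with earlier results of these data known. Depending on the comparison, the compared groups did not overlap in 8 to 29 of the 35 members. This was not counted over all genes. Libraries of the same replicate number were compared by their deviations from group means. These deviations correlated above 0.1 in every pair for degrader 1 h against DMSO in the time course (r = 0.26, 0.37 and 0.30). The same held there for degrader 2 h against DMSO (0.24 and 0.15), and for both agents against A485 at 15 min (0.41, 0.17 and 0.11).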

Additional observations from a re-analysis of the deposited data

Results flagged for a closer look

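The effect of the degrader at 1 h differed between cells with and without A485 for 8 members, by the limma interaction over all 12597 genes (the change with A485 minus the change without it, log2). It was lower for E2f2 (-0.87), Cdc25b (-0.47) and Mki67 (-0.22), and higher for Rrm2 (0.56), Mcm5 (0.35), Mcm4 (0.32), Ccnb1 (0.29) and Rrm1 (0.18). The calls on Mcm4 and Rrm1 were each lost in 7 of the 12 fits that left out 1 library. The 1 h groups with and without A485 also carry different replicate numbers.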

How the results depend on the processing

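Shares of all genes called were counted for the main fit only. Most limits sit in the time course. Without the doubted libraries the number of members called was 17 at degrader 15 min, 8 at 30 min, 16 at 1 h and 12 at 2 h, 22 at washout 30 min and 20 at washout 2 h against degrader 2 h, and 24 at washout 2 h against DMSO. Fitting only the compared groups gave 3 at degrader 15 min, 13 at 1 h, 11 at 2 h, 23 at washout 30 min, 21 at washout 2 h and 23 against DMSO. At degrader 15 min 3 were called with no filter, and 3 without the conflictingly labelled libraries. Without the doubted libraries and 1 more, an alternative added after seeing the data, washout 30 min gave 20 to 23 (20, 21, 22 and 23). The causes were not tested.

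Leaving out each library gave 3 to 6 at degrader 15 min, 4 to 8 at 30 min, 3 to 5 at 1 h, 4 to 6 at 2 h, 0 to 0 at washout 30 min (limma), 4 to 6 at washout 2 h and 10 to 13 against DMSO. In the A485 series it gave 7 to 12, 8 to 11 and 12 to 15 for the degrader, 15 to 17, 17 to 20 and 19 to 22 for A485, 0 to 3, 1 to 3 and 5 to 7 for both against A485 at 15 min, 30 min and 1 h, and 6 to 9 for the interaction. LBH589 gave 12 to 15 at 30 min, 28 to 31 at 1 h and 20 to 26 between them, and the LBH589 washout 7 to 19.

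With the replicate block 4, 4, 6 and 5 members were called for the degrader times of the time course, 8 at washout 30 min, 11, 8 and 14 for the degrader and 17 for A485 15 min in the A485 series, 3, 1 and 5 for both against A485, 24 for LBH589 1 h against 30 min and 15 for the LBH589 washout. For the interaction, with a block added after seeing the data, the count stayed at 8. No paired analysis was possible for the other comparisons. For those of washout 2 h, the washout columns could not be matched to single replicates. In the rest the groups do not share replicate numbers. Of 255 called changes, Mcm6 at A485 30 min reversed with same-total scaling, from -0.10 to 0.0915. Calls lost numbered 23 with that scaling, 9 with edgeR, 8 with no filter, 9 with the compared groups, 11 with the block and 252 (against 1242 kept) over all libraries left out. None was lost with a pseudocount of 10. None was lost with the second transcript either, but that setting could move few calls. Most members have 1 transcript, which was then kept, and only E2f1 and Mcm7 had transcripts whose means differed. All members passed the low-value filter.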

Other observations

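The single library of 1 h washout after the degrader has no replicate and entered no comparison. It held 4583 normalised reads of E2f2, 4884 of Cdc6 and 12777 of Mki67. For the mitotic genes it held 1824 reads of Plk1 and 1318 of Bub1, and for replication 2672 of Mcm7. The values of Bub1 and Mcm7 lay between those of 30 min washout and 2 h of degrader, and that of Plk1 above both.

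Across the 35 members, which are not independent replicates, the change at 2 h of washout against 2 h of degrader had a Spearman's rho of -0.64 with gene span. It was -0.16, -0.31 and -0.12 for A485 at 15 min, 30 min and 1 h, -0.01 and -0.2 for LBH589 at 30 min and 1 h, -0.2 for washout 30 min against 2 h of degrader and -0.24 between the LBH589 washouts. For the degrader at 1 h it was 0.21 in the A485 series and 0.29 in the time course.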
